A study of Mus musculus with 6 samples.

Results

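The heat shock and J-domain chaperones are the proteins that fold, hold, refold or hand over other proteins in the cell. Their genes were taken from the count table by name: every protein-coding gene whose symbol begins with Hspa, Hspb, Hspd, Hspe, Hsph, Hsp90, Dnaja, Dnajb or Dnajc and a number, plus the heat shock factors *Hsf1* and *Hsf2*. This gave 72 of the 40166 genes in the table, of which 64 were counted deeply enough to be tested. The rule used names only and no measured value. Each gene was also put in one of 7 classes by where its protein works and whether it is known to be induced by stress. Both the members and the classes were chosen with earlier results of these data known.

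The samples were 6 tumors of YUMM3.3, a single BRAF-mutant mouse melanoma cell line, grown under the skin of the lower back of C57BL/6 mice. The 3 vehicle mice (tumors 7, 8 and 9) received water, and the 3 RGS mice (tumors 10, 11 and 12) received rigosertib (RGS), a small molecule described as a RAS mimetic that may block signaling through RAF and PI3K, at 300 mg/kg. Both groups were dosed by oral gavage on 5 days of each week, and the tumors were described as taken at 17 days of treatment. The study asked which genes RGS changes in the tumor. The study describes the RNA as bulk RNA of tumors with tumor, stromal and immune cells. The mice were young adults by its methods.

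HSP70 proteins bind unfolded stretches of a client and let them go in a cycle driven by ATP. J-domain proteins (the Dnaja, Dnajb and Dnajc families) bring the client and switch on that cycle, HSP110 proteins swap the nucleotide, HSP90 proteins finish signaling clients such as kinases, small HSPs hold unfolded chains, and HSP60 with HSP10 forms a folding chamber in mitochondria. A set of these genes in the cytosol is switched on by *Hsf1* when proteins unfold, another set in the endoplasmic reticulum (ER) is switched on by the unfolded protein response, and tumors are known to lean on both.

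The reads per tumor assigned to genes ranged from 22793087 to 32555494 with vehicle and from 13837932 to 21617368 with RGS, so that the treatment cannot be told apart from depth by splitting the libraries. On counts thinned to the smallest library, 19 members were higher and 10 were lower, against 2489 higher and 2514 lower of 14576 genes in all. The melanocyte markers fixed for the check were nearly absent: *Tyr*, *Dct* and *Mlana* had no count in any tumor, and the 7 markers summed to between 4.94 and 7.68 CPM (counts per library, scaled to a common size) with vehicle and between 4.53 and 10.5 CPM with RGS. The immune markers *Ptprc*, *Adgre1*, *Cd3e*, *Cd3d* and *Cd8a* had no count in any tumor. The study reported leukocytes, macrophages and T cells in YUMM3.3 tumors by flow cytometry, which these missing counts do not match. The reason was not tested, so the cell makeup of the samples is uncertain. The 4 leukocyte markers summed to between 187 and 248 CPM with vehicle and between 920 and 1027 CPM with RGS, nearly all of it from *Laptm5* and *Cd53*. The 4 smooth muscle and pericyte markers summed to between 89.0 and 102 CPM with vehicle and between 387 and 449 CPM with RGS, where *Rgs5* was higher and *Acta2* and *Cnn1* were lower. The fibroblast sum was between 176 and 235 CPM with vehicle and between 134 and 149 CPM with RGS, most of it *Pdgfra*, which was lower, while *Dcn* was higher (0.571 to 1.46 CPM against 6.55 to 15.7 CPM) and *Lum* was at 0. The remaining lists had small sums, given as vehicle against RGS. Macrophage markers, nearly all *Cd68*, which was not called, were at 58.9 to 64.7 CPM against 65.4 to 88.2 CPM. Endothelial markers were at 0.946 to 1.20 CPM against 3.24 to 11.2 CPM, and keratinocyte markers at 0.400 to 1.72 CPM against 6.77 to 22.8 CPM. These sums were higher in every RGS tumor. Skeletal muscle markers overlapped, at 6.59 to 11.6 CPM against 4.60 to 9.14 CPM. The T cell, neutrophil and adipocyte markers were at most 0.602 CPM in any tumor. The part of these shifts in the chaperone results was not tested.

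Short stretches next to the start sites of 5 members are shown because they hold the DNA letters through which the ER and cytosolic stress programs are known to act, and because the genes behind them differ in how they moved. They come from the RefSeq promoter table (GRCm38.p6), which matched 57 of the 72 members. The members without a window, which were not searched, include *Hsp90aa1*, *Hsp90ab1*, *Hspa8*, *Hspa9* and *Hsf1*. The ER stress response element was searched as CCAAT and CCACG with 9 bases between them, on both strands. It was found in 39 of 32851 promoter windows (0.119%, each reaching from 250 bases before to 50 bases after a start site) and, among members, in *Hspa5*, *Hsp90b1* and *Dnajc3*. The 250 bases before each start are given 5′ to 3′ on the strand of the gene, with the matched letters in capitals. The second match of *Hsp90b1* lies on the opposite strand and therefore reads as CGTGG and ATTGG.
Hspa5, chr2:34771840-34772089 (+): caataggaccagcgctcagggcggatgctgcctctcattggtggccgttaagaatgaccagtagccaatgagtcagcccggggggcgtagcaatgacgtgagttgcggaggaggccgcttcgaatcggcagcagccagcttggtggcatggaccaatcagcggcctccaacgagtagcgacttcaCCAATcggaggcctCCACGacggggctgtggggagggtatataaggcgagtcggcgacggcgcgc
Hsp90b1, chr10:86705445-86705694 (-): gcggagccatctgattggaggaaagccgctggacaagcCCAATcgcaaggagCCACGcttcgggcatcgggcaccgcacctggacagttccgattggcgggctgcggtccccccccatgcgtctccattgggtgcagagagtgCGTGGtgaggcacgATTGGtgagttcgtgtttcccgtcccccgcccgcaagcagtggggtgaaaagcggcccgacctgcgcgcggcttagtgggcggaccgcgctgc
Dnajc3, chr14:118937682-118937931 (+): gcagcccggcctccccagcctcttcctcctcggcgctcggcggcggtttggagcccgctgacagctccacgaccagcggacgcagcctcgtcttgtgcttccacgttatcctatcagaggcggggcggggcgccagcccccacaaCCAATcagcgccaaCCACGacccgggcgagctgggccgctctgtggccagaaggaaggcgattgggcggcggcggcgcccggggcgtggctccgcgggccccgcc

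The heat shock element was searched as alternating blocks of GAA and TTC, 2 bases apart, in the order GAA, TTC, GAA, on both strands. It was found in 198 of the same windows (0.603%) and, among members, in *Hsph1*, *Hspe1*, *Hspd1* and *Dnajb6*. The windows of *Hspe1* and *Hspd1* overlap, since these genes are transcribed away from each other, so they hold the same pair of overlapping matches. The 250 bases before the start of *Hspe1* and 30 bases around the match of *Hsph1*, which lies between 16 and 28 bases after the start site, are given with the blocks in capitals.
Hspe1, chr1:55087898-55088147 (+): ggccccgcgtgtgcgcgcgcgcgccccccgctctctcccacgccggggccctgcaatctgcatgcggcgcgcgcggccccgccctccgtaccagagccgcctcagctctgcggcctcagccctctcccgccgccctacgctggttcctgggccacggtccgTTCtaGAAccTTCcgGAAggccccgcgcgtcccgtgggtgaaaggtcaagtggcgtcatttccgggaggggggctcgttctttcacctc
Hsph1, chr5:149636279-149636308 (-): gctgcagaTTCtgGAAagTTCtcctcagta

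Another pattern, the XBP1 core TGACGTGG, was in 222 windows (0.676%) and in that of 1 member, *Dnajc25*. A match is a run of letters and not a measured binding site, and a window without a match says only that these letters are not in it.

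The groups were set against each other in edgeR's quasi-likelihood F test over all 15355 genes that passed the count filter, with p-values adjusted by Benjamini-Hochberg over all of them and a threshold of 0.05. Of the 64 members tested, 18 (28.1%) were higher with RGS, 11 (17.2%) were lower and 35 did not pass the threshold. Over all genes tested, 16.3% were higher and 16.5% were lower, so the share of members that rose was above the background and the share that fell was close to it. In either direction, 29 members were called (45.3%), against 32.8% of all genes. The values of the groups did not overlap for 38 members (59.4%), against 45.8% of all genes. The median log2 fold change was 0.13 over the members and -0.05 over all genes. In bulk tumors, fewer cells of a type and less RNA per cell cannot be told apart.

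The counts are given by class, against 16.3% higher and 16.5% lower over all genes tested. In classes this small, a single gene shifts a share widely. In the stress-inducible cytosolic class 4 of 8 tested members were higher and none was lower, and in the constitutive cytosolic class 3 of 12 were higher and none was lower. In the ER class 7 of 13 (53.8%) were higher and 1 (7.69%) was lower. In the mitochondrial class none of 10 was higher and 4 (40.0%) were lower, and neither heat shock factor passed the threshold. The median log2 fold change of the tested genes was 0.71 in the stress-inducible class, 0.16 in the constitutive class, 0.53 in the ER class and -0.65 in the mitochondrial class. The stress-inducible median includes *Hspb8* at 2.29 ± 1.61 (SE), a gene with only 0 to 10 counts per tumor.

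**Figure D1:**
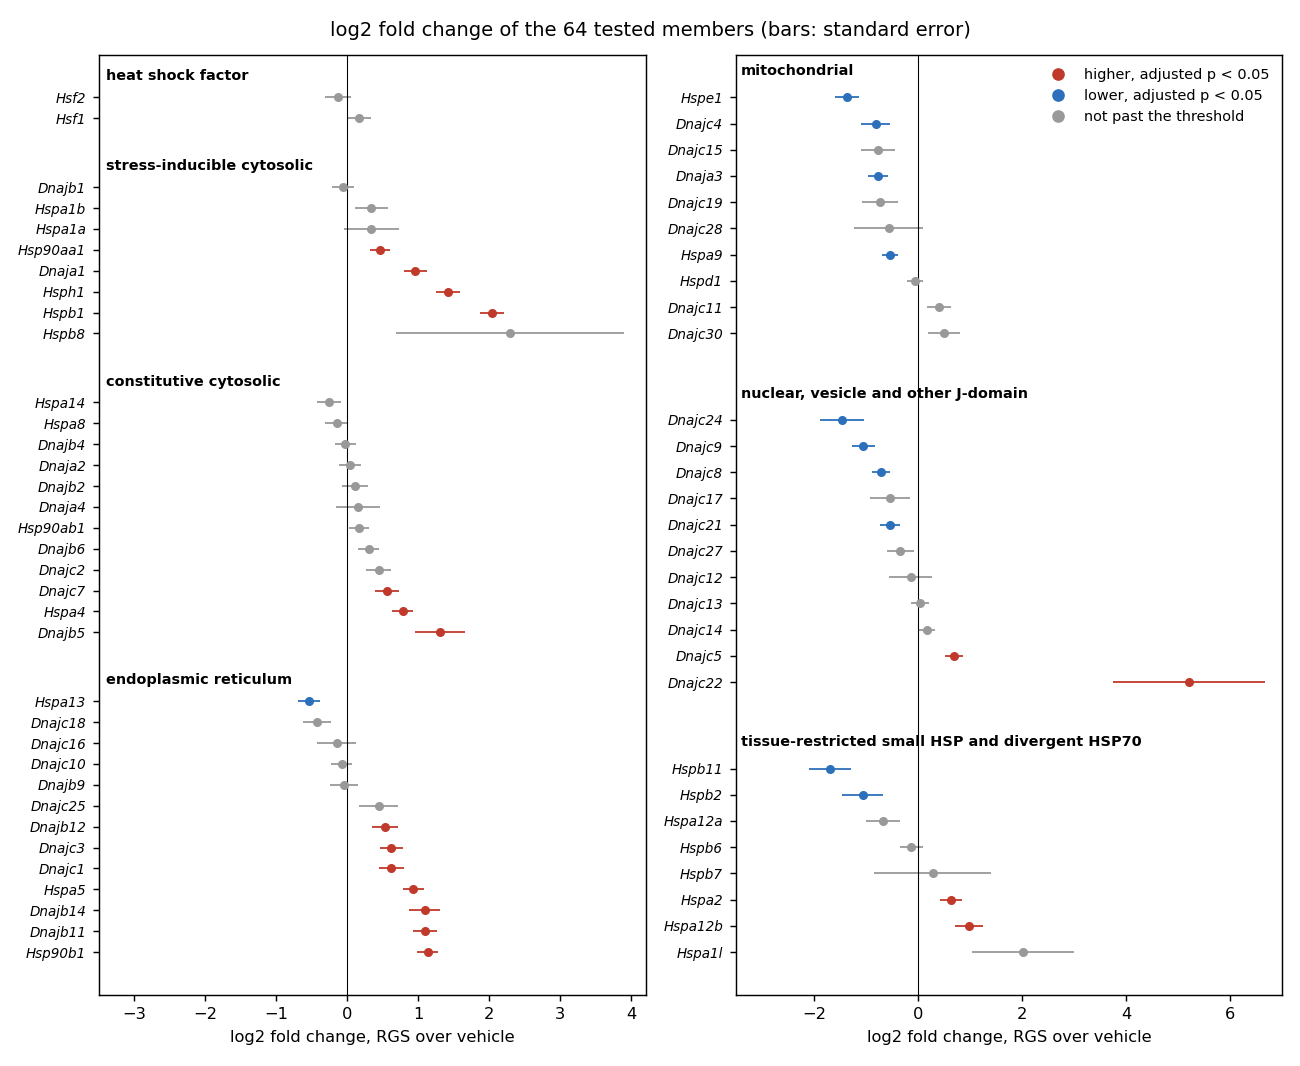
The log2 fold change of RGS over vehicle (x axis) is plotted for each of the 64 tested members, grouped by class, with its standard error as a bar and colored by the edgeR call. The ER members with calls sit between 0.53 and 1.13 except *Hspa13*, and the called mitochondrial members all sit below 0.

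The heat shock factors themselves differed by less than their spread. *Hsf1*, the master regulator of the cytosolic heat shock response, was at 81.5, 61.4 and 71.9 CPM in the vehicle tumors and at 67.1, 83.1 and 89.5 CPM in the RGS tumors, so the groups overlapped (log2 fold change 0.16 ± 0.17, SE, edgeR adjusted p = 0.528). *Hsf2*, a related factor that can pair with *Hsf1*, was at 48.6, 51.9 and 51.4 CPM with vehicle and at 54.5, 38.1 and 45.6 CPM with RGS (log2 fold change -0.13 ± 0.18, edgeR adjusted p = 0.620). The RNA level of a factor gives no measure of its activity.

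Among the stress-inducible cytosolic genes the largest change past the threshold was in *Hspb1*, the small heat shock protein known as HSP25 in mice, which holds unfolded chains and protects actin filaments. It was at 26.7, 24.7 and 25.9 CPM in the vehicle tumors and at 101, 106 and 111 CPM in the RGS tumors. Every RGS tumor was far above every vehicle tumor, a 4.12-fold rise (log2 fold change 2.04 ± 0.17, edgeR adjusted p = 3.88e-08). Of the 50-base words of *Hspb1*, 50.1% also occur in another gene, mostly the pseudogene *Hsp25-ps1*, so some of its reads could have been split or dropped in counting.

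*Hsph1*, the HSP110 protein that resets HSP70, was at 139, 104 and 95.4 CPM with vehicle and at 325, 285 and 299 CPM with RGS. Again the groups were well apart, and *Hsph1* rose 2.69-fold (log2 fold change 1.42 ± 0.17, edgeR adjusted p = 3.34e-06). It was the only member with the heat shock element letters that was called higher, and the part of these letters in its rise was not tested. *Dnaja1*, the J-domain partner of cytosolic HSP70, was at 185, 176 and 173 CPM with vehicle and at 301, 324 and 413 CPM with RGS. It rose 1.95-fold (log2 fold change 0.96 ± 0.16, edgeR adjusted p = 0.000126), and 20.6% of its 50-base words also occur in other genes. *Hsp90aa1*, the inducible HSP90, was at 1558, 1474 and 1562 CPM with vehicle and at 1984, 2018 and 2331 CPM with RGS. It rose 1.38-fold (log2 fold change 0.46 ± 0.14, edgeR adjusted p = 0.0187), but the call was lost under 4 of 14 alternatives, with an adjusted p of up to 0.0983, namely scaling by library size only and leaving out vehicle tumor 8, RGS tumor 11 or RGS tumor 12. With *Gm12346* and other genes it shares 47.5% of its 50-base words.

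The classical heat-induced HSP70 genes did not pass the test. *Hspa1b* was at 36.3, 22.2 and 20.6 CPM with vehicle and at 31.2, 31.9 and 37.3 CPM with RGS (log2 fold change 0.34 ± 0.23, edgeR adjusted p = 0.280). Its near copy *Hspa1a* was at 8.45, 10.7 and 4.94 CPM with vehicle and at 10.5, 14.5 and 5.63 CPM with RGS (log2 fold change 0.34 ± 0.39, edgeR adjusted p = 0.534). In both genes the groups overlapped, and without vehicle tumor 7 *Hspa1b* was called higher (log2 fold change 0.64, edgeR adjusted p = 0.0281). Since 62.3% and 66.3% of their words are shared, mostly with each other, reads could not be assigned to one or the other with certainty. *Dnajb1*, the J-domain partner known as HSP40 and a standard readout of *Hsf1* activity, was at 70.2, 85.2 and 85.5 CPM with vehicle and at 73.5, 79.2 and 78.2 CPM with RGS (log2 fold change -0.06 ± 0.16, edgeR adjusted p = 0.809). *Hspb8*, a small HSP that works with BAG3, had only 6, 1 and 0 counts with vehicle and 6, 3 and 10 with RGS, too few to show a difference (edgeR adjusted p = 0.296). The class was thus split between *Hspb1*, *Hsph1*, *Dnaja1* and *Hsp90aa1*, which rose, and *Hspa1a*, *Hspa1b*, *Dnajb1* and *Hspb8*, which were not called with all 6 tumors.

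**Figure D2:**
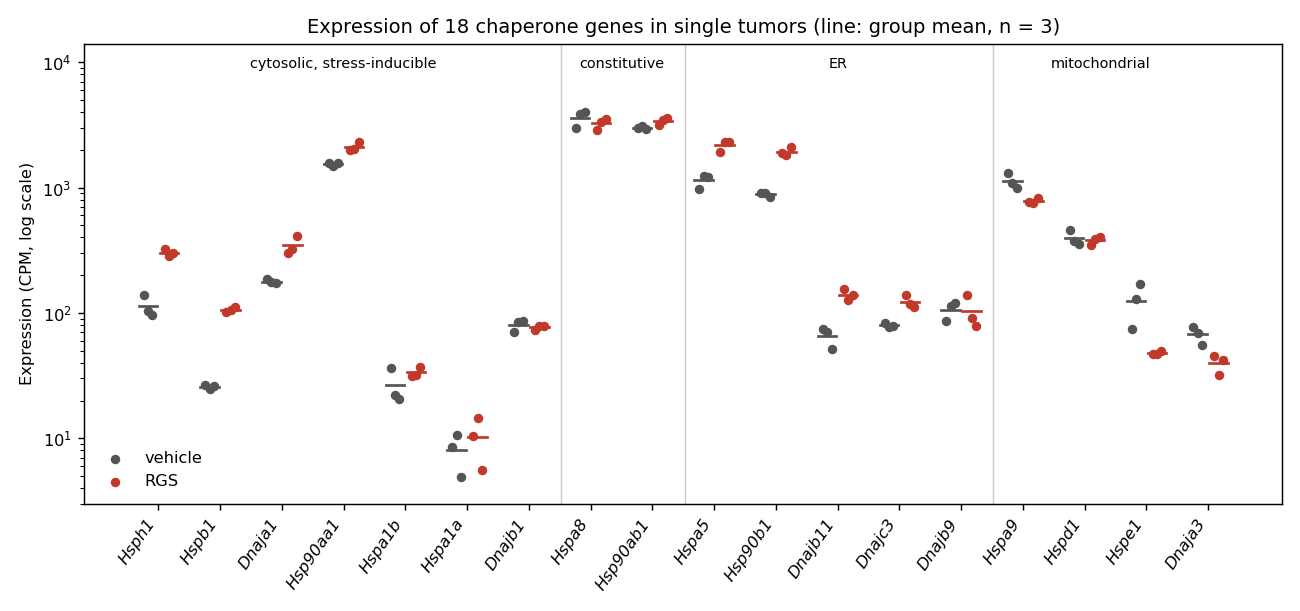
Expression in CPM on a log axis is shown for 18 members in each tumor, vehicle in gray and RGS in red, with the group mean as a line (n = 3). *Hsph1*, *Hspb1*, *Hspa5*, *Hsp90b1* and *Dnajb11* have RGS tumors clear of all vehicle tumors, *Hspe1* has vehicle tumors spread from 74.0 to 169 CPM above RGS tumors at 46.6 to 49.9 CPM, and *Hspa8*, *Dnajb1*, *Dnajb9* and *Hspd1* overlap.

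Most of the constitutive cytosolic chaperones did not pass the test. *Hsp90ab1*, the HSP90 that all cells make, was at 3007, 3092 and 2913 CPM with vehicle and at 3159, 3446 and 3565 CPM with RGS. The groups did not overlap, yet the difference did not pass the test (log2 fold change 0.17 ± 0.14, edgeR adjusted p = 0.369). *Hspa8*, the constitutive HSP70, was at 2993, 3833 and 4000 CPM with vehicle and at 2877, 3339 and 3529 CPM with RGS (log2 fold change -0.15 ± 0.16, edgeR adjusted p = 0.491). The groups overlapped, and without vehicle tumor 7 it was called lower (log2 fold change -0.27, edgeR adjusted p = 0.0472). Of the 50-base words of *Hspa8*, 39.4% also occur in other genes, most often *Gm15459*, a limit that holds for its ratios below too. Per length, *Hsp90ab1* and *Hspa8* were the highest and next highest of all members in the vehicle tumors, at 3298 and 2731 TPM (a length-scaled share of all transcripts, computed here from counts and gene length).

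*Hspa4*, a second HSP110-type protein, was at 383, 352 and 331 CPM with vehicle and at 569, 567 and 691 CPM with RGS. It rose 1.71-fold (log2 fold change 0.78 ± 0.15, edgeR adjusted p = 0.000600). Both HSP110-type members, *Hsph1* and *Hspa4*, were higher in every RGS tumor than in every vehicle tumor. *Dnajb5*, a cytosolic J-domain protein, was at 7.14, 5.67 and 3.22 CPM with vehicle and at 15.6, 12.9 and 11.4 CPM with RGS, a 2.48-fold rise (log2 fold change 1.31 ± 0.35, edgeR adjusted p = 0.00744). *Dnajc7*, a J-domain cochaperone that binds both HSP70 and HSP90, rose with a log2 fold change of 0.56 ± 0.17 (edgeR adjusted p = 0.0180), although its call was lost under 4 of 14 alternatives. The other constitutive members did not pass the test and had log2 fold changes between -0.26 for *Hspa14* and 0.44 for *Dnajc2*, which works on the ribosome. *Dnaja2*, *Dnajb2*, *Dnajb4*, *Dnajb6* and *Dnaja4* lay between -0.03 and 0.30. *Dnajb6* also has the heat shock element letters in its window.

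In the ER, the main HSP70 and HSP90 rose together with several of their J-domain partners. *Hspa5*, the ER HSP70 known as BiP, was at 980, 1236 and 1223 CPM with vehicle and at 1922, 2297 and 2327 CPM with RGS. It rose 1.90-fold (log2 fold change 0.93 ± 0.15, edgeR adjusted p = 0.000145). *Hsp90b1*, the ER HSP90 known as GRP94, was at 909, 907 and 835 CPM with vehicle and at 1874, 1823 and 2113 CPM with RGS. The lowest RGS tumor was well above the highest vehicle tumor, a 2.19-fold rise (log2 fold change 1.13 ± 0.15, edgeR adjusted p = 9.53e-06). *Dnajb11*, a J-domain partner of BiP, was at 73.9, 70.6 and 51.6 CPM with vehicle and at 155, 127 and 138 CPM with RGS, a 2.14-fold rise (log2 fold change 1.10 ± 0.17, edgeR adjusted p = 8.62e-05).

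*Dnajc3*, known as p58IPK, a BiP partner that also restrains the kinase PERK, was at 83.6, 76.7 and 78.0 CPM with vehicle and at 139, 117 and 111 CPM with RGS. It rose 1.54-fold (log2 fold change 0.62 ± 0.16, edgeR adjusted p = 0.00552). The members with the ER stress response element in their window, *Hspa5*, *Hsp90b1* and *Dnajc3*, were thus all called higher. The other ER members called higher, *Dnajb11*, *Dnajb14*, *Dnajb12* and *Dnajc1*, do not have these letters in their windows. The ER-membrane J-domain proteins *Dnajb14*, *Dnajb12* and *Dnajc1* rose with log2 fold changes of 1.09, 0.53 and 0.62 (edgeR adjusted p = 0.000916, 0.0303 and 0.0122), and the calls of *Dnajb12* and *Dnajc1* were lost under 5 and 2 of 14 alternatives.

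The ER class did not move as a whole. *Dnajb9*, known as ERdj4, a BiP partner that is a usual target of the unfolded protein response, was at 86.7, 113 and 119 CPM with vehicle and at 139, 90.6 and 79.1 CPM with RGS. RGS tumor 10 was the highest and RGS tumor 12 the lowest of all 6 tumors (log2 fold change -0.05 ± 0.20, edgeR adjusted p = 0.885). *Dnajc10*, a J-domain protein with disulfide reductase activity, had a log2 fold change of -0.08. *Hspa13*, a divergent HSP70 of the microsomes, went the other way: it was at 81.3, 103 and 94.2 CPM with vehicle and at 65.9, 58.9 and 66.8 CPM with RGS, and fell by 0.54 ± 0.16 on the log2 scale (edgeR adjusted p = 0.0167), with an adjusted p of 0.149 at most when vehicle tumor 8 or RGS tumor 11 was left out. *Dnajc25*, *Dnajc16* and *Dnajc18* did not pass the test, at log2 fold changes of 0.44, -0.15 and -0.43.

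In the mitochondria, the called members were all lower. *Hspe1*, the HSP10 lid of the mitochondrial folding chamber, was at 74.0, 128 and 169 CPM with vehicle and at 47.2, 46.6 and 49.9 CPM with RGS. The vehicle tumors varied widely, but the lowest of them was still above every RGS tumor, and *Hspe1* was 2.58-fold lower with RGS (log2 fold change -1.37 ± 0.23, edgeR adjusted p = 0.000133). Its partner *Hspd1*, the HSP60 chamber itself, was at 456, 374 and 356 CPM with vehicle and at 349, 389 and 401 CPM with RGS (log2 fold change -0.06 ± 0.15, edgeR adjusted p = 0.804). These genes share the promoter region shown above with its heat shock element letters. One passed the test and the other did not, and the difference between their fold changes was not tested. The log2 ratio of *Hspe1* to *Hspd1* counts, chosen after their values were seen and therefore not tested, was -2.62, -1.55 and -1.07 in the vehicle tumors and -2.88, -3.06 and -3.01 in the RGS tumors. Their exons overlap by 112 bases on opposite strands, and 22.8% of the *Hspe1* words and 42.1% of the *Hspd1* words are shared with other genes. The pseudogenes that carry the name of *Hspe1* or *Hspd1* in the table had at most 72 counts in a tumor. *AC117239.2*, which shares most words with *Hspe1*, is not among them. Since the rule for multi-mapping reads is not known, low pseudogene counts do not settle how shared reads were counted.

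*Hspa9*, the mitochondrial HSP70 known as mortalin, was at 1308, 1090 and 990 CPM with vehicle and at 763, 748 and 823 CPM with RGS. It was 1.45-fold lower (log2 fold change -0.54 ± 0.15, edgeR adjusted p = 0.0107), and lost its call only when RGS tumor 11 was left out (adjusted p = 0.0532). *Dnaja3*, the J-domain partner of mortalin known as TID1, was at 77.9, 69.5 and 55.6 CPM with vehicle and at 45.6, 32.2 and 42.2 CPM with RGS, a 1.69-fold fall (log2 fold change -0.76 ± 0.19, edgeR adjusted p = 0.00504). *Dnajc4* was at 14.0, 20.4 and 14.2 CPM with vehicle and at 9.37, 9.87 and 8.50 CPM with RGS (log2 fold change -0.81 ± 0.28, edgeR adjusted p = 0.0325). Its call was lost under 5 of 14 alternatives, including an offset for gene length (log2 fold change -0.46, adjusted p = 0.204). *Dnajc15*, a J-domain protein of the inner membrane import motor, was at 11.6, 27.4 and 38.7 CPM with vehicle and at 14.1, 17.0 and 14.6 CPM with RGS, so that vehicle tumor 7 was below all RGS tumors, and the difference was not called (log2 fold change -0.77 ± 0.32, edgeR adjusted p = 0.0743). This value depended on single tumors: it was -1.12 and called without vehicle tumor 7 (edgeR adjusted p = 0.000814), and -0.36 and not called without vehicle tumor 9 (edgeR adjusted p = 0.448). It was also called without the count filter (edgeR adjusted p = 0.0132) and with library size only (edgeR adjusted p = 0.0362). Another import motor gene, *Dnajc19*, was at -0.73, *Dnajc28* at -0.56, *Dnajc11* of the mitochondrial membranes at 0.41 and *Dnajc30* at 0.50 on the log2 scale, none past the test.

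The size of the chaperone pool depended on the unit, and the shares of its main classes did not overlap between the groups. All 72 members together took 1.43, 1.36 and 1.21% of the summed TPM in the vehicle tumors and 1.39, 1.37 and 1.35% in the RGS tumors, which overlapped. Of the read counts, without regard to length, they took 1.58, 1.64 and 1.57% with vehicle and 1.67, 1.74 and 1.79% with RGS, which did not. Within the pool, the ER class held 15.6, 16.3 and 15.7% with vehicle and 25.4, 24.6 and 24.8% with RGS. The mitochondrial class held 15.4, 13.4 and 13.3% with vehicle and 8.78, 8.55 and 8.47% with RGS. In vehicle tumors the ER and mitochondrial pools were thus close in size, and in RGS tumors the ER pool was the larger by far. A few abundant genes set these pools. Most of the ER pool was *Hspa5* and *Hsp90b1*, with means of 885 and 723 TPM with vehicle and 1482 and 1382 TPM with RGS. In the mitochondrial pool the mean went from 955 to 570 TPM for *Hspa9*, from 496 to 413 TPM for *Hspd1* and from 268 to 93.7 TPM for *Hspe1*. The stress-inducible class went from 12.8, 11.3 and 11.9% to 16.1, 15.5 and 16.4%, and the constitutive class from 50, 52.0 and 51.7% to 45.4, 47.0 and 46.1%. Shares sum to a whole, so a rise of one class lowers the others, and they are given without a test.

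**Figure D3:**
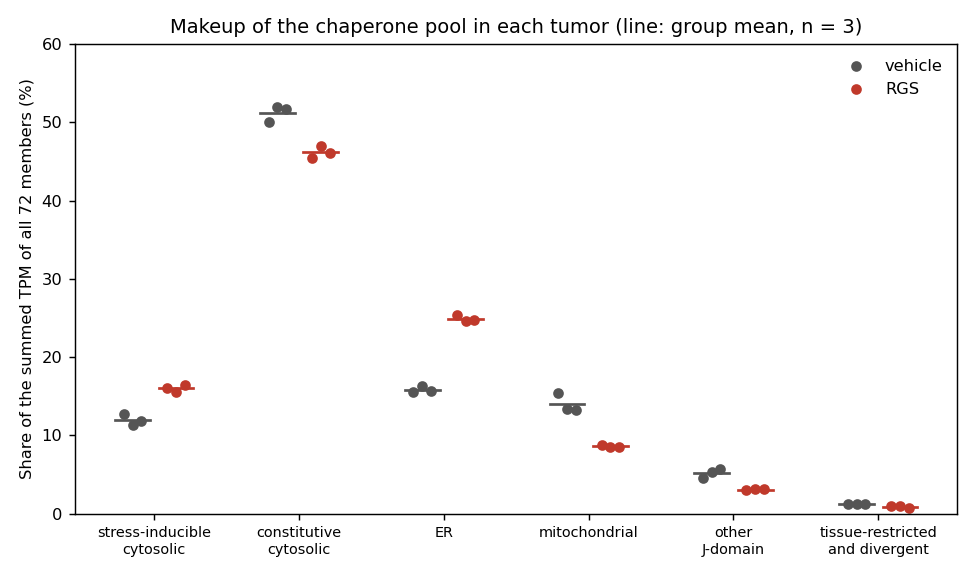
The share of each class in the summed TPM of all 72 members (y axis, percent) is shown for each tumor, vehicle in gray and RGS in red, with the group mean as a line (n = 3). The ER share is at 24.6% or above in the RGS tumors and at 16.3% or below in the vehicle tumors, and the mitochondrial share is at 8.78% or below against 13.3% or above. Most of the ER share is *Hspa5* and *Hsp90b1*.

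Ratios of counts between chaperones within a tumor do not depend on how libraries are scaled, and 4 of them were tested by a two-sided exact permutation test over the 6 tumors, whose smallest possible p is 0.1. The log2 ratio of ER *Hspa5* to cytosolic *Hspa8* was -1.61, -1.63 and -1.71 with vehicle and -0.58, -0.54 and -0.60 with RGS. The groups were far apart relative to their spread, with a difference of 1.08 (exact p = 0.1, adjusted p = 0.200 over the 4 ratios), the smallest p the design allows. The ratio of inducible *Hsp90aa1* to constitutive *Hsp90ab1* was -0.95, -1.07 and -0.90 with vehicle and -0.67, -0.77 and -0.61 with RGS, a difference of 0.29 without overlap (exact p = 0.1, adjusted p = 0.200). The ratio of *Hspa1a* plus *Hspa1b* to *Hspa8* was -6.06, -6.86 and -7.29 with vehicle and -6.11, -6.17 and -6.36 with RGS, which overlapped (difference 0.53, exact p = 0.400, adjusted p = 0.400). The ratio of mitochondrial *Hspa9* to *Hspa8* was -1.19, -1.81 and -2.01 with vehicle and -1.91, -2.16 and -2.10 with RGS, which also overlapped (difference -0.38, exact p = 0.200, adjusted p = 0.267). None of the 4 can pass the threshold at this sample size.

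**Figure D4:**
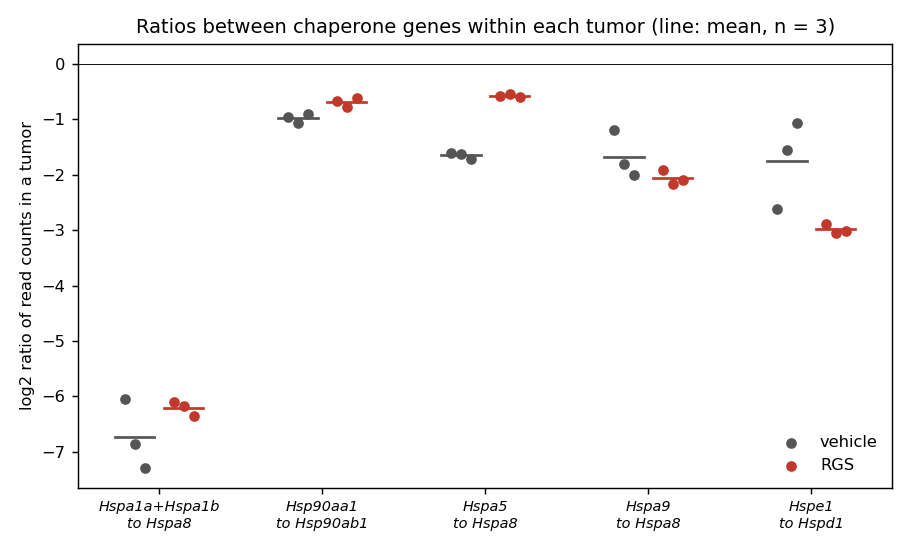
The log2 ratio of read counts between chaperone genes (y axis) is plotted for each tumor, vehicle in gray and RGS in red, with the mean as a line (n = 3). The ratio of *Hspa5* to *Hspa8* is near -1.65 with vehicle and near -0.57 with RGS, the ratio of *Hspe1* to *Hspd1* is lower in every RGS tumor, and the ratio of *Hspa1a* plus *Hspa1b* to *Hspa8* overlaps.

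The J-domain proteins of the nucleus, of vesicles and of other sites had 4 of 11 tested genes lower (36.4%) and 2 higher (18.2%). Over all genes tested, 16.5% were lower and 16.3% higher, so the share that rose was close to the background. *Dnajc9*, a histone chaperone, was at 47.3, 52.2 and 59.0 CPM with vehicle and at 17.1, 30.1 and 29.6 CPM with RGS, a 2.07-fold fall (log2 fold change -1.05 ± 0.22, edgeR adjusted p = 0.00116). *Dnajc24*, which serves the diphthamide modification of elongation factor 2, was at 7.82, 8.87 and 16.0 CPM with vehicle and at 1.99, 4.75 and 5.20 CPM with RGS (log2 fold change -1.46 ± 0.43, edgeR adjusted p = 0.0132), and its call was lost when vehicle tumor 9 was left out (adjusted p = 0.102) or RGS tumor 10 was. *Dnajc8*, a splicing-associated protein, fell by 0.71 ± 0.18 on the log2 scale (edgeR adjusted p = 0.00474) and *Dnajc21*, a ribosome biogenesis factor, by 0.53 ± 0.19 (edgeR adjusted p = 0.0445). The *Dnajc21* call was lost under 5 of 14 alternatives.

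*Dnajc5*, the cysteine string protein of secretory vesicles, rose in this class, with a log2 fold change of 0.69 ± 0.17 (edgeR adjusted p = 0.00450). *Dnajc22* had the largest fitted change of all members but few reads: 0, 4 and 0 counts with vehicle and 33, 36 and 25 with RGS (fitted log2 fold change 5.20 ± 1.46, edgeR adjusted p = 0.0101). The size of that change rests on the 4 counts of vehicle tumor 8, and without RGS tumor 11 the adjusted p was 0.0505. *Dnajc12*, *Dnajc13*, *Dnajc14*, *Dnajc17* and *Dnajc27* did not pass the test, with log2 fold changes between -0.54 and 0.17, and *Dnajc5b*, *Dnajc5g* and *Dnajc6* had too few counts to be tested.

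The tissue-restricted small HSPs and divergent HSP70 genes were split. *Hspb11*, a part of the ciliary transport complex also named IFT25 that is a small HSP only by name, was at 11.8, 13.4 and 20.1 CPM with vehicle and at 8.0, 3.01 and 2.81 CPM with RGS, a 3.24-fold fall (log2 fold change -1.69 ± 0.40, edgeR adjusted p = 0.00313). *Hspb2*, a muscle small HSP, was called lower (log2 fold change -1.06 ± 0.39, edgeR adjusted p = 0.0462), but the groups overlapped and the call was lost under 7 of 14 alternatives. Its exons share 252 bases, 30.2% of their length, with *Cryab* on the opposite strand. *Cryab* had between 5464 and 12258 counts per tumor against 55 to 568 for *Hspb2*. Reads within the shared bases cannot be told apart without the strand. *Hspa2*, best known from the testis, and *Hspa12b*, best known from endothelium, rose with log2 fold changes of 0.64 ± 0.21 and 0.98 ± 0.27 (edgeR adjusted p = 0.0251 and 0.00869), and *Hspa2* lost its call under 5 of 14 alternatives. The endothelial marker *Cdh5* was higher with RGS as well, at 0.249 to 0.731 CPM with vehicle and 2.71 to 10.2 CPM with RGS, while *Pecam1* and *Tek* were not called (log2 fold changes 1.88 and -1.88) and *Kdr* was too low to be tested. The part of these markers in the *Hspa12b* result was not tested. *Hspa12a*, *Hspa1l*, *Hspb6* and *Hspb7* did not pass the test, with log2 fold changes of -0.67, 2.01, -0.13 and 0.28, and *Hspb3*, *Hspb9*, *Dnajb3*, *Dnajb7* and *Dnajb13* were too low to be tested.

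The 43 cochaperones and other chaperones outside the name rule, listed from textbook knowledge, included 42 tested genes, of which 15 (35.7%) were higher and 6 (14.3%) were lower, against 16.3% and 16.5% of all genes, and their median log2 fold change was -0.04. *Bag3*, the nucleotide exchange factor that links HSP70 to small HSPs, was at 125, 90.3 and 108 CPM with vehicle and at 332, 338 and 355 CPM with RGS (log2 fold change 1.66 ± 0.16, edgeR adjusted p = 3.21e-07). *Calr*, the ER lectin chaperone calreticulin, was at 458, 535 and 517 CPM with vehicle and at 1498, 1595 and 1638 CPM with RGS (log2 fold change 1.65 ± 0.15, edgeR adjusted p = 1.33e-07). *Cryab*, the small HSP αB-crystallin, and *Pdia4*, an ER disulfide isomerase, rose with log2 fold changes of 1.36 and 1.22 (edgeR adjusted p = 5.98e-06 and 6.75e-06). *Hscb*, the J-domain protein of mitochondrial iron-sulfur assembly, was at 20.0, 38.6 and 30.8 CPM with vehicle and at 6.86, 10.1 and 15.8 CPM with RGS, and fell by 1.45 on the log2 scale (edgeR adjusted p = 0.00119). *Bag2*, an HSP70 nucleotide exchange factor, *Cdc37l1*, an HSP90 cochaperone, and *Chordc1*, another, fell by 1.05, 0.63 and 0.57 (edgeR adjusted p = 0.000141, 0.0297 and 0.0115). By group, 3 of 14 HSP90 cochaperones were higher and 2 lower, 5 of 13 HSP70 cochaperones were higher and 3 lower, and 7 of 13 other chaperones were higher and 1 lower, while neither tested factor or regulator was called.

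**Figure D5:**
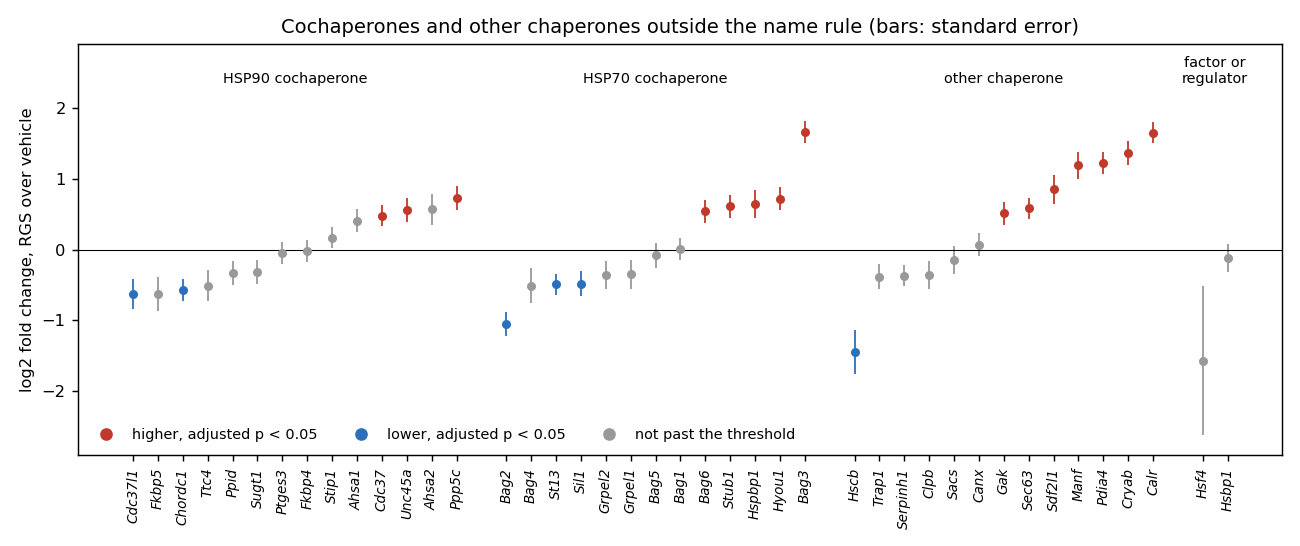
The log2 fold change of RGS over vehicle with its standard error (y axis) is shown for the 42 tested cochaperones and other chaperones outside the name rule, in 4 groups, colored by the edgeR call. *Bag3* and *Calr* are the highest at 1.66 and 1.65, and among the called genes *Hscb* is the lowest at -1.45.

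Called members differed in gene length by direction. The median length of the members was 4546 bases for those called higher, 2377 bases for those called lower and 4249 bases for those not called, against 3877 bases over all genes tested. Over all genes, those called higher had a median of 4412 bases and those called lower one of 4192 bases. With an offset for gene length, an alternative chosen after seeing the data, 19 members were higher and 9 were lower. *Hspe1*, 1474 bases long, then had a log2 fold change of -1.10 (adjusted p = 9.47e-05), and *Hspb1*, 1031 bases long, one of 2.38 (adjusted p = 5.88e-09).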

How the data were processed

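RNA from 6 YUMM3.3 tumors was sequenced as paired-end reads of 150 bases, 3 tumors per group. The values deposited are raw, unnormalized counts of reads for each gene, with gene length and position. The submitters' processing notes name cutadapt 1.18, FastQC 0.11.7, STAR 2.7.1a, featureCounts 1.6.4 and the build mm10. The strand setting and the rule for multi-mapping reads are not given in the sources used here. All 38927 identifiers shared with GENCODE M21 had the same position there. Columns were matched to samples by name.

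Counts were analysed in R 4.3.3 with edgeR 4.0.16. Genes were kept at a median of 5 or more counts in 1 or both groups (15355 genes). TMM factors were 1.02 to 1.08 with vehicle and 0.920 to 0.978 with RGS, so they did not overlap between the groups. The quasi-likelihood F test was used with Benjamini-Hochberg adjustment over all genes tested and a threshold of 0.05. SE is the log2 fold change over the square root of its F statistic, and CPM is per TMM-scaled library. Each tumor was taken as its own mouse. Where this was not so, p-values would cover technical spread only. A floor of 3 counts is 0.0922 to 0.217 CPM by raw library totals, without the TMM factors used for the other CPM values. The procedure was tested on simulated data.

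Alternatives were DESeq2 1.42.0, limma voom (3.58.1), RLE factors, library size only, 2 other count filters, a further threshold of 1 on the absolute log2 fold change, thinning, each tumor left out and, chosen after seeing the data, an offset for gene length. Members, classes, markers and the list of related chaperones were chosen with earlier results of these data known. Full values are given for 23 preset members (both heat shock factors and the main chaperones of each compartment) and for the 6 largest increases and 6 largest decreases among called members whose groups do not overlap and whose mean reaches 1 CPM in a group. Other members are named in their class. Of the related chaperones, the 4 largest called changes in each direction are named. Shared sequence is the share of 50-base words of a gene's transcripts found in transcripts of another gene, on either strand. Protein sequences were not used here.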

Additional observations from a re-analysis of the deposited data

How the results depend on the processing

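Of the 18 members called higher, 12 kept the call under all 14 alternatives run gene by gene, and of the 11 called lower, 5 did (*Hspe1*, *Dnaja3*, *Dnajc8*, *Dnajc9* and *Hspb11*). With a further threshold of 1 on the absolute log2 fold change, 7 members were higher and 5 lower, and 5 related chaperones were higher and 2 lower. The share of all genes past that threshold was not computed, so these counts have no background beside them. With each tumor left out in turn, 13 to 20 members were higher and 7 to 13 lower, the 7 without vehicle tumor 8 or RGS tumor 10, and 11 to 16 related chaperones were higher and 2 to 10 lower (2 without vehicle tumor 8, 10 without vehicle tumor 7). Without vehicle tumor 8, calls over all genes fell as well, to 1776 higher and 1717 lower from 2503 and 2533. Library size only moved the median of all genes from -0.05 to -0.19 and the calls to 1870 higher and 3152 lower, and gave 13 members higher, 13 members lower and 12 related chaperones lower. The length offset gave 3086 higher and 2391 lower over all genes.

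Values near 0 changed sign: *Dnajb1* ranged from -0.15 to 0.00 with a tumor left out and was 0.03 with the length offset, *Dnajb9* ranged from -0.33 to 0.09 and was 0.08, and *Hspd1* ranged from -0.13 to 0.05 and was 0.04. None of these passed the test. The cause was not tested. Of the 35 members not called, 8 were called under 1 to 4 of the alternatives: *Hspa1b*, *Hspa8*, *Dnajc15*, *Dnajc19* and *Dnajc2* without vehicle tumor 7, *Dnajc18* without RGS tumor 11, *Dnajc11* without RGS tumor 10 and *Hspa1l* with DESeq2. The log2 ratio of *Hspa9* to *Hspa8* ranged from -0.55 to -0.14 and that of *Hspa1a* plus *Hspa1b* to *Hspa8* from 0.25 to 0.86 with a tumor left out. Floors in CPM cover counting error only. No paired analysis was possible because the groups share no replicate numbers.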
